A study of Saccharomyces cerevisiae with 18 samples.

Results

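The genes described here are 52 ribosome biogenesis factors of the budding yeast Saccharomyces cerevisiae, chosen by identifier from nucleolar proteins, proteins of small nucleolar ribonucleoproteins (snoRNPs), RNA helicases, the small subunit processome and large subunit assembly factors. All 52 were found among the 6600 genes of the tables. They were sorted by known role into 26 factors of the small (40S) subunit, 16 of the large (60S) subunit, 6 snoRNP proteins and 4 proteins that serve both subunits or the nucleolus in general. RNA-seq had been done on 3 strains that the series presents as producers of diosgenin (DSG), a plant steroidal sapogenin: LP085-Vc, LP104-17 and LP118. All 3 are of the BY4742 background, a laboratory strain of mating type alpha, and the labels state no genotype, no introduced gene and no clone number for any of them. Cells of each strain were taken from flask cultures at 30 °C in SD (synthetic dextrose) medium with 2% w/v glucose after 6 h and 24 h, and each of the 6 groups had 3 libraries, 18 in all. The labels do not tie the 3 libraries to separate cultures, so each p-value refers to the variation among these libraries, part or all of which can be technical.

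A eukaryotic ribosome is built in the nucleolus from a long precursor ribosomal RNA (rRNA). The precursor is modified by snoRNPs, cut, folded and loaded with ribosomal proteins by assembly factors that leave before the subunit starts to translate. The box C/D snoRNPs methylate rRNA and the box H/ACA snoRNPs convert uridines to pseudouridine. The small subunit processome assembles on the 5′ part of the precursor and later factors mature the 60S part. In yeast, the genes of these factors belong to a regulon that is transcribed in step with growth and nutrients, and many have the promoter elements PAC (polymerase A and C) and RRPE (ribosomal RNA processing element). Dot6 and Tod6 are repressors that bind PAC, and Stb3 binds RRPE.

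These elements were common in front of the members. In the 250 bases before the start codon, searched on both strands, GATGAG, the core of PAC, was present in 49 of the 52 members (94.2%) and in 17.0% of 6020 promoters of the build R64. AAAATTTT, the core of RRPE, which is its own reverse complement, was present in 44 of 52 (84.6%) and in 8.62% of all promoters. Both cores stood together in 42 of 52 (80.8%), against 4.07% of all. The windows include any neighbouring gene, and a promoter between divergent genes was counted for each of them. The sequences below, read from the RefSeq genome of build R64 and printed 5′ to 3′ on the strand of the gene, show the arrangement in members that the results turn on. Capitals mark the matches to GATGAG, to its reverse complement CTCATC and to AAAATTTT.
NSR1 (YGR159C, chrVII:807793-807872, minus strand): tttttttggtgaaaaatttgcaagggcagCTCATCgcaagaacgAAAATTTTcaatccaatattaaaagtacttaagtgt
NOP56 (YLR197W, chrXII:545920-545999, plus strand): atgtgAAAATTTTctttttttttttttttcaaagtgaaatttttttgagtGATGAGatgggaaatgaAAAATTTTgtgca
NOP58 (YOR310C, chrXV:898442-898521, minus strand): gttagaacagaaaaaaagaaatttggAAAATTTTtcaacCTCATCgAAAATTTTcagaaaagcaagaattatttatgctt
MPP10 (YJR002W, chrX:438745-438824, plus strand): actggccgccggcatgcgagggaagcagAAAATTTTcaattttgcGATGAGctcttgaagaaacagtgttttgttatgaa
UTP10 (YJL109C, chrX:217374-217453, minus strand): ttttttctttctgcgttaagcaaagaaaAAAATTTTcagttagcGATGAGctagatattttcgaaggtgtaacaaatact
IMP3 (YHR148W, chrVIII:393416-393495, plus strand): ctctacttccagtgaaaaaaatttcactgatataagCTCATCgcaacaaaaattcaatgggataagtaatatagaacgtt
UTP15 (YMR093W, chrXIII:453856-453935, plus strand): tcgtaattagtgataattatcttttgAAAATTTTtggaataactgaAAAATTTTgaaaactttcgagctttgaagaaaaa
NOP7 (YGR103W, chrVII:695258-695337, plus strand): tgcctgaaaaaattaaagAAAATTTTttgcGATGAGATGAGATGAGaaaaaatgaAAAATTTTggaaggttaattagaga
ERB1 (YMR049C, chrXIII:370580-370659, minus strand): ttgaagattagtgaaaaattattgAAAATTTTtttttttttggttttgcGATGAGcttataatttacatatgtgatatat
DBP3 (YGL078C, chrVII:361965-362044, minus strand): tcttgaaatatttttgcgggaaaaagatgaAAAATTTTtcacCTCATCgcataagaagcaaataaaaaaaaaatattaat

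NSR1, NOP56, NOP58, MPP10, UTP10, NOP7, ERB1 and DBP3 show both cores. IMP3 has a PAC core and no RRPE core in its 250 bases, and UTP15 has RRPE cores and no PAC core. The 3 members with no GATGAG in this window were UTP4, UTP15 and UTP22, all small subunit factors, and UTP22 had a match to neither core. The longer form GCGATGAG, which contains the core, stood in front of 27 members (51.9%) and 3.82% of all promoters. It was in 10 of 16 large subunit factors, 14 of 26 small subunit factors and 3 of the 4 general factors, but in 0 of the 6 snoRNP genes, where the core is preceded by other bases, as in NOP56. PAC cores of members had a median position of -119 relative to the start codon and RRPE cores of -137. The medians over all promoters were near these, -131 for PAC cores and -139 for RRPE cores. A match is a stretch of letters and not a measured binding site.

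**Figure D1:**
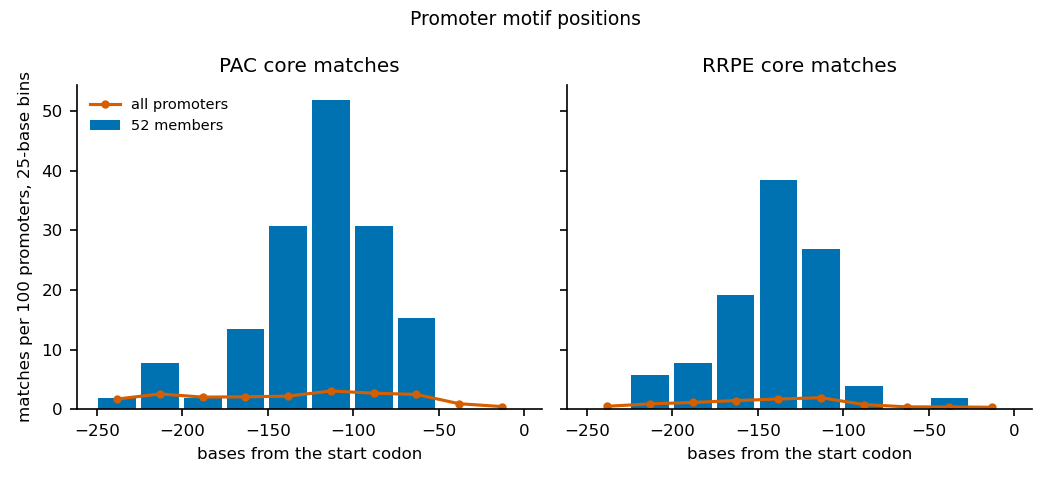
Matches per 100 promoters in bins of 25 bases, by distance from the start codon in bases, for the 52 members (bars) and for all 6020 promoters (line and points). Matches of members gather around the median positions of -119 for PAC and -137 for RRPE. The line for all promoters stays low throughout, with medians of -131 and -139. It is highest in the bin from -125 to -101, at 3.04 PAC and 1.91 RRPE matches per 100 promoters.

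Total counts ran from 5.12 to 7.55 (in units of 1000000) per library, and the counts of a member in a library from 19 to 5336. The genes of mating type alpha were expressed in every library (summed 421 to 1906 CPM, counts per 1000000) and those of mating type a stayed low (15.0 to 71.7 CPM), and the labels name an alpha background. Within groups, replicate 1 of LP085-Vc at 6 h and replicate 2 of LP104-17 at 6 h lay farthest from their companions. The counts over all 52 members that rest on these groups are also given without both libraries. Counts by class and of other genes are not. Levels are shares of a library and not amounts per cell. They do not show whether a transcript or the rest of the RNA changed in amount. Counts per gene are printed unscaled, and statements on overlap and order use CPM, which corrects for library size. Genes were called at an edgeR adjusted p below 0.05 over the 6131 genes tested, all 52 members passed the filter on low counts, and values are log2 fold change ± standard error (SE) or CPM ± SD with n = 3.

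The members took up 0.223 to 0.240% of all counts in LP085-Vc at 6 h, 0.323 to 0.349% in LP104-17, while LP118 reached 1.30 to 1.37%. The shares at 24 h were, in the same order, 0.102 to 0.107%, 0.425 to 0.445% and 0.953 to 0.970%. None of these 6 ranges overlaps another, LP118 at 6 h is the highest and LP085-Vc at 24 h the lowest. All 52 members had their highest mean level in LP118 at 6 h. The lowest mean was in LP085-Vc at 24 h for 44 members and in LP085-Vc at 6 h for the other 8. The shares of all genes with these highest and lowest groups were not counted. For the median member the highest group was 12.7 times the lowest, against 2.68 times for the median of 6123 genes with counts in every group, and the ratio ran from 3.01 in SPB4 to 153 in NSR1. By class, the median ratio was 63.0 for the general factors, 43.9 for the snoRNP proteins, 11.6 for the small subunit and 9.47 for the large subunit.

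**Figure D2:**
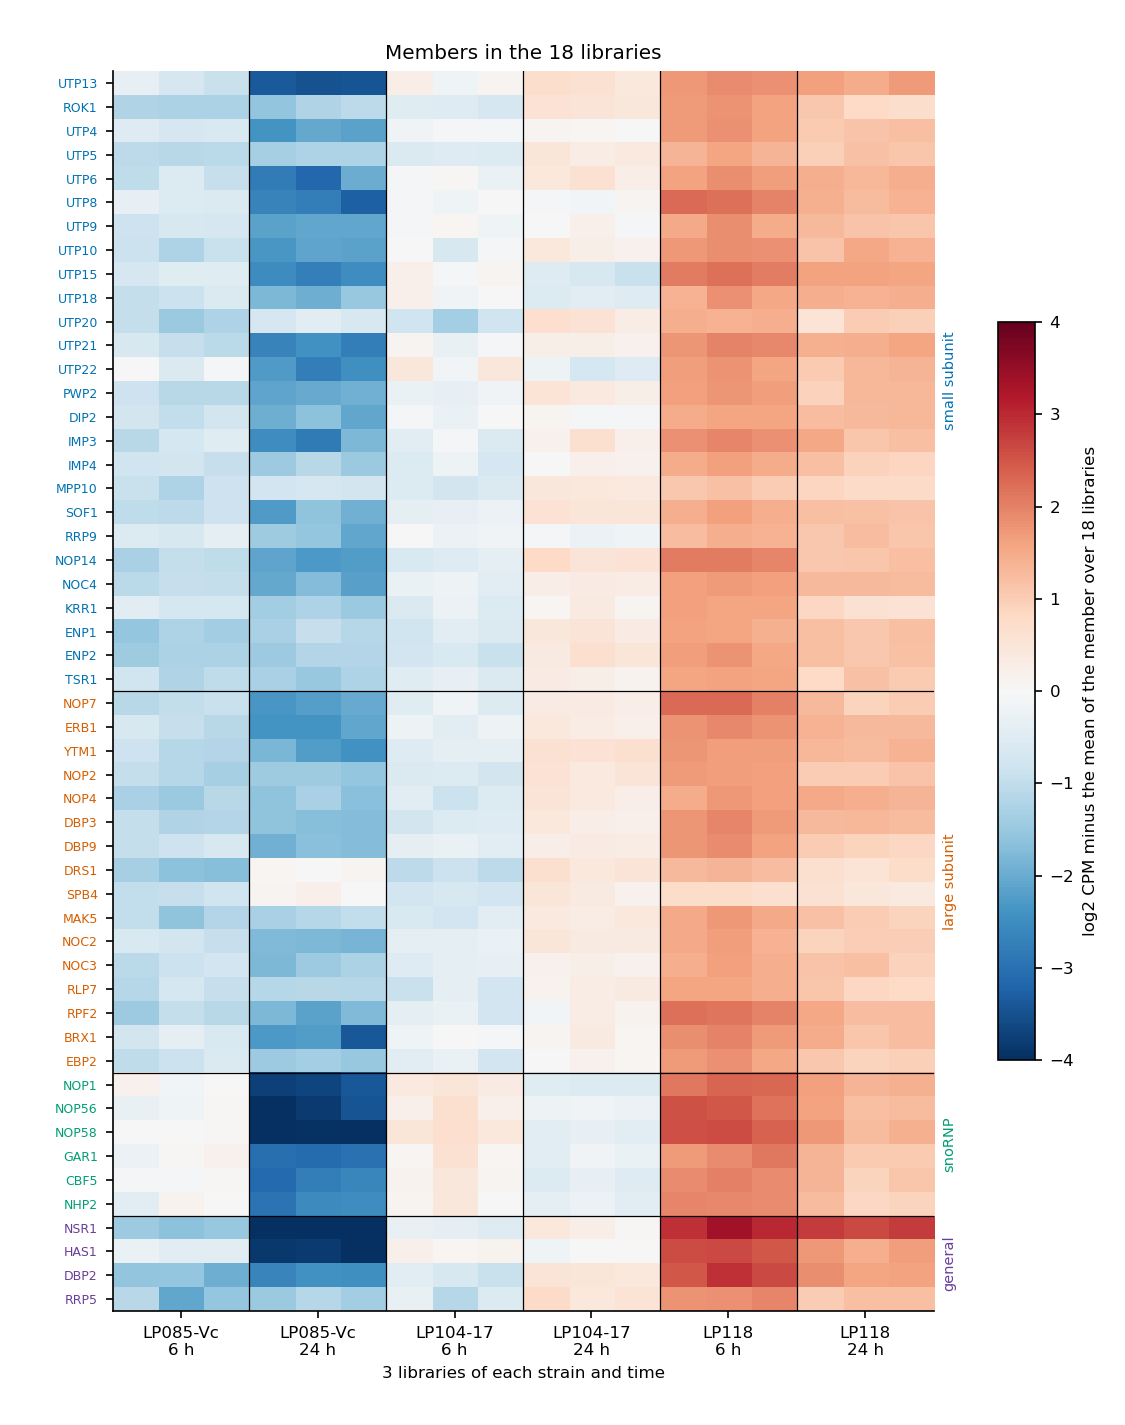
Heat map of the 52 members (rows, grouped and coloured by class, general meaning proteins of both subunits or the nucleolus) in the 18 libraries (columns, 3 per strain and time). Colour gives log2 CPM minus the mean of the member over the 18 libraries. All 52 rows have their highest mean in LP118 at 6 h, and the snoRNP genes, NSR1 and HAS1 are among the deepest blue in LP085-Vc at 24 h, while DRS1 and SPB4 are palest there.

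Strains at 6 h differed by a large step between LP118 and the others and by a small one between LP104-17 and LP085-Vc. In LP104-17, 40 of 52 members were higher than in LP085-Vc and 0 were lower, where 5.79% of all tested genes were higher and 5.76% lower. When only the 6 libraries compared were fitted, 24 were higher. Without both libraries named above the count was 40 as well. At an unadjusted p below 0.05, 45 were higher and 0 lower, and DESeq2 called 42 and 0. The median member differed by 0.54 on the log2 scale, against 0.00 over all genes tested, and the range was 0.17 (SPB4) to 1.13 (NSR1). Libraries of the 2 groups did not overlap for 43 members, as for 24.0% of all genes. The 12 members not called included BRX1, SPB4, RLP7 and EBP2 of the large subunit and UTP22, UTP20, IMP4, KRR1 and IMP3 of the small subunit. The others were the 3 box H/ACA members, NHP2, CBF5 and GAR1. The 3 box C/D members were all called.

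In LP118 at 6 h, all 52 members were higher than in LP085-Vc, where 32.2% of tested genes were higher and 33.8% lower, and all 52 were higher than in LP104-17, where 28.7% were higher and 29.8% lower. The medians were 2.58 and 2.03, and every member passed a doubling in both. Without both libraries named above, the counts were 52 and 52. Against LP085-Vc the values ran from 1.59 (SPB4) to 4.66 (NSR1), and the 5th to 95th percentiles of all genes were -1.67 and 1.88. These comparisons share libraries with one another, so their values are given side by side and not as independent evidence. No member was lower in either, with edgeR at an unadjusted p below 0.05 or with DESeq2.

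At 24 h all 52 members were higher in LP104-17 than in LP085-Vc, against 25.1% of genes higher and 27.4% lower, with a median of 2.11. Likewise all 52 were higher in LP118 than in LP085-Vc, against 38.5% of genes higher and 39.2% lower, with a median of 3.22. In LP118 against LP104-17, 49 of 52 were higher and 0 lower, against 35.0% of genes higher and 33.6% lower, with a median of 0.98. DRS1, SPB4 and UTP20 were the 3 members not called there. At an unadjusted p below 0.05, 50 were higher and 0 lower, and DESeq2 also called 50 and 0. In the other comparisons at 24 h, 0 members were lower with edgeR at an unadjusted p below 0.05 and with DESeq2.

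**Figure D3:**
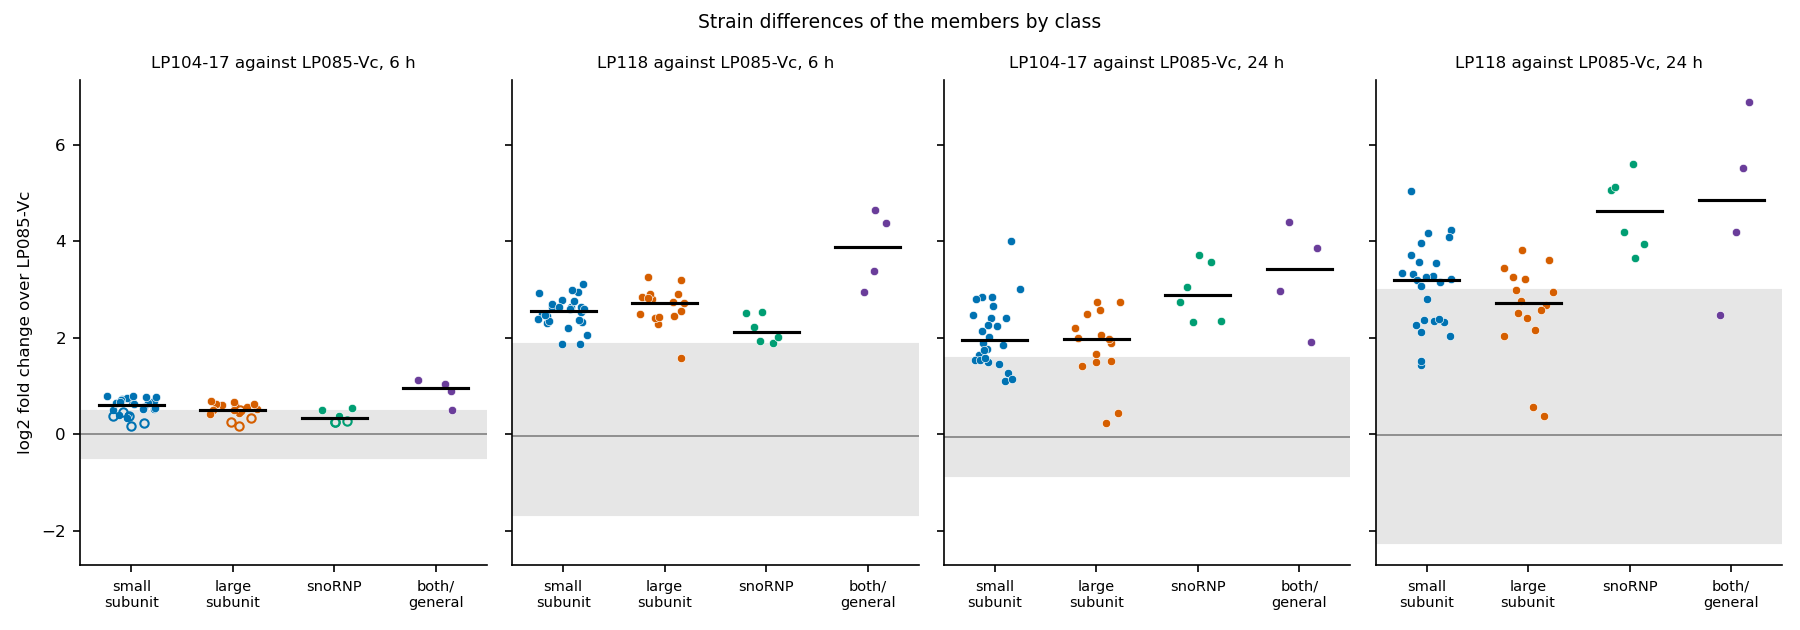
Log2 fold change of each member over LP085-Vc (vertical axis) by class, in LP104-17 and LP118 at 6 h and 24 h. Filled points were called, open points were not, black bars are class medians, and the grey band and line are the 5th to 95th percentiles and the median of all tested genes. The points lie above 0 in all 4 panels, around the upper edge of the band for LP104-17 at 6 h and mostly above it for LP118 at 6 h.

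Among the factors of both subunits or the nucleolus in general, NSR1, which encodes an RNA-binding protein similar to nucleolin, had the widest range. NSR1 had 168, 162 and 207 counts at 6 h and 30, 27 and 28 at 24 h in LP085-Vc, and 344, 432 and 355 at 6 h and 637, 661 and 547 at 24 h in LP104-17. NSR1 counts in LP118 were 2881, 3821 and 3255 at 6 h and 3503, 3418 and 3377 at 24 h. NSR1 was lowest in LP085-Vc at 24 h once scaled to library size, and none of its 6 groups overlapped another. Its lowest and highest group means, LP085-Vc at 24 h and LP118 at 6 h, were 4.32 ± 0.330 and 663 ± 114 CPM. At 24 h LP118 stood above LP085-Vc by 6.88 ± 0.16 (adjusted p = 1.2e-17). HAS1 encodes a DEAD-box RNA helicase needed for both subunits. HAS1 had 276, 268 and 311 counts at 6 h and 24, 26 and 21 at 24 h in LP085-Vc, and 344, 430 and 397 at 6 h and 301, 395 and 374 at 24 h in LP104-17. HAS1 counts in LP118 were 1658, 1625 and 1571 at 6 h and 1175, 1065 and 1097 at 24 h. HAS1 was lowest in LP085-Vc at 24 h once scaled to library size, and none of its 6 groups overlapped another. Its LP085-Vc libraries at 24 h lay far below all others, with a log2 change over time of -3.53 ± 0.13, and LP104-17 was 3.86 ± 0.13 above LP085-Vc at 24 h.

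DBP2 encodes another DEAD-box RNA helicase, and the tables give it a length that includes its intron, so its FPKM is set low. DBP2 had 156, 174 and 153 counts at 6 h and 79, 98 and 91 at 24 h in LP085-Vc, and 314, 368 and 279 at 6 h and 688, 774 and 718 at 24 h in LP104-17. DBP2 counts in LP118 were 2138, 2805 and 2493 at 6 h and 1824, 1656 and 1494 at 24 h. DBP2 was lowest in LP085-Vc at 24 h once scaled to library size, and none of its 6 groups overlapped another. In LP104-17 it rose by 1.13 ± 0.13 between the times. RRP5 encodes the scaffold needed for cleavages on the way to both subunits. RRP5 had 316, 178 and 300 counts at 6 h and 261, 344 and 277 at 24 h in LP085-Vc, and 507, 384 and 512 at 6 h and 1179, 1091 and 1125 at 24 h in LP104-17. RRP5 counts in LP118 were 1958, 1931 and 2259 at 6 h and 1491, 1874 and 1651 at 24 h. RRP5 was lowest in LP085-Vc at 6 h once scaled to library size, and libraries overlapped only between LP085-Vc at 6 h and LP085-Vc at 24 h, and between LP085-Vc at 6 h and LP104-17 at 6 h. In LP085-Vc and LP104-17 at 6 h, replicate 2 was the lowest of its group for RRP5, and the libraries of these 2 groups overlapped although the difference was called (0.90 ± 0.20, adjusted p = 0.00406).

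The snoRNP proteins were the highest class per length. Their median FPKM (counts scaled by gene length and library size) was 129 ± 15.8 (SD, n = 3) in LP085-Vc at 6 h, where the small subunit factors had 14.1 ± 0.506 and the large subunit factors 20.7 ± 1.04. By LP085-Vc at 24 h it was down to 15.7 ± 2.09, and in LP118 at 6 h it was 475 ± 28.2. NOP1 encodes fibrillarin, the methyltransferase of the box C/D particle. NOP1 had 1413, 1277 and 1585 counts at 6 h and 101, 111 and 128 at 24 h in LP085-Vc, and 1504, 2173 and 1758 at 6 h and 917, 1030 and 976 at 24 h in LP104-17. NOP1 counts in LP118 were 4516, 4987 and 5336 at 6 h and 4298, 3866 and 3519 at 24 h. NOP1 was lowest in LP085-Vc at 24 h once scaled to library size, and none of its 6 groups overlapped another. NOP56 and NOP58 encode the paired scaffold proteins of the same particle. NOP56 had 546, 641 and 870 counts at 6 h and 44, 52 and 64 at 24 h in LP085-Vc, and 694, 1285 and 845 at 6 h and 593, 719 and 648 at 24 h in LP104-17. NOP56 counts in LP118 were 3194, 2932 and 2554 at 6 h and 2212, 1833 and 1663 at 24 h. NOP56 was lowest in LP085-Vc at 24 h once scaled to library size, and libraries overlapped only between LP085-Vc at 6 h and LP104-17 at 24 h. NOP58 had 552, 609 and 727 counts at 6 h and 28, 40 and 36 at 24 h in LP085-Vc, and 719, 1105 and 829 at 6 h and 432, 529 and 464 at 24 h in LP104-17. NOP58 counts in LP118 were 2781, 2702 and 2485 at 6 h and 1999, 1619 and 1582 at 24 h. NOP58 was lowest in LP085-Vc at 24 h once scaled to library size, and none of its 6 groups overlapped another. All 3 box C/D genes had their LP085-Vc libraries at 24 h far below every other library, and between 2.90-fold and 5.12-fold separated NOP58 from NOP1 in FPKM in each group. LP118 stood above LP085-Vc at 24 h by 5.61 ± 0.15 in NOP58 and by 5.07 ± 0.12 in NOP1.

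CBF5 encodes the pseudouridine synthase of the box H/ACA particle, and GAR1 and NHP2 encode core proteins beside it. CBF5 had 1019, 1113 and 1367 counts at 6 h and 129, 173 and 180 at 24 h in LP085-Vc, and 1058, 1762 and 1243 at 6 h and 724, 992 and 832 at 24 h in LP104-17. CBF5 counts in LP118 were 3190, 3348 and 3316 at 6 h and 2875, 2304 and 2350 at 24 h. CBF5 was lowest in LP085-Vc at 24 h once scaled to library size, and none of its 6 groups overlapped another. GAR1 had 498, 657 and 829 counts at 6 h and 76, 76 and 78 at 24 h in LP085-Vc, and 561, 1092 and 664 at 6 h and 431, 619 and 544 at 24 h in LP104-17. GAR1 counts in LP118 were 1570, 1705 and 2161 at 6 h and 1589, 1439 and 1257 at 24 h. GAR1 was lowest in LP085-Vc at 24 h once scaled to library size, and libraries overlapped only between LP085-Vc at 6 h and LP104-17 at 6 h, and between LP085-Vc at 6 h and LP104-17 at 24 h. NHP2 had 356, 578 and 600 counts at 6 h and 66, 91 and 90 at 24 h in LP085-Vc, and 476, 800 and 521 at 6 h and 384, 488 and 405 at 24 h in LP104-17. NHP2 counts in LP118 were 1544, 1432 and 1542 at 6 h and 1256, 1016 and 919 at 24 h. NHP2 was lowest in LP085-Vc at 24 h once scaled to library size, and libraries overlapped only between LP085-Vc at 6 h and LP104-17 at 6 h, and between LP085-Vc at 6 h and LP104-17 at 24 h. The order of levels was the one seen for the box C/D genes, with LP118 at 6 h highest and LP085-Vc at 24 h lowest in all 3. The least and most abundant of them stayed within 1.58-fold of each other in FPKM in every group. CBF5 in LP104-17 at 6 h was not called against LP085-Vc (0.26 ± 0.12, adjusted p = 0.205) but was 2.35 ± 0.14 higher at 24 h.

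The small subunit factors include UtpA, the first subcomplex to bind the precursor, here UTP4, UTP5, UTP8, UTP9, UTP10 and UTP15. UTP4 had 273, 267 and 322 counts at 6 h and 79, 104 and 93 at 24 h in LP085-Vc, and 321, 453 and 407 at 6 h and 426, 483 and 438 at 24 h in LP104-17. UTP4 counts in LP118 were 1054, 1087 and 1014 at 6 h and 869, 1027 and 941 at 24 h. UTP4 was lowest in LP085-Vc at 24 h once scaled to library size, and none of its 6 groups overlapped another. UTP10 had 321, 272 and 399 counts at 6 h and 123, 149 and 139 at 24 h in LP085-Vc, and 521, 453 and 610 at 6 h and 803, 802 and 740 at 24 h in LP104-17. UTP10 counts in LP118 were 1597, 1677 and 1774 at 6 h and 1382, 1998 and 1581 at 24 h. UTP10 was lowest in LP085-Vc at 24 h once scaled to library size, and none of its 6 groups overlapped another. Both had LP085-Vc at 24 h as the lowest group, with LP104-17 in the middle at either time and LP118 on top. All 6 UtpA genes were higher in LP104-17 and LP118 than in LP085-Vc at both times. Of all tested genes, 5.79% were higher in LP104-17 and 32.2% in LP118 at 6 h. The shares at 24 h were 25.1% and 38.5%. Against LP085-Vc at 24 h the UtpA median was 3.44 in LP118.

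UtpB holds PWP2, DIP2, UTP6, UTP13, UTP18 and UTP21, most of them with WD40 repeats. PWP2 had 285, 256 and 292 counts at 6 h and 123, 140 and 139 at 24 h in LP085-Vc, and 383, 486 and 504 at 6 h and 745, 772 and 672 at 24 h in LP104-17. PWP2 counts in LP118 were 1279, 1368 and 1373 at 6 h and 1034, 1502 and 1308 at 24 h. PWP2 was lowest in LP085-Vc at 24 h once scaled to library size, and none of its 6 groups overlapped another. UTP13 had the largest differences of all small subunit factors over LP085-Vc at 24 h, with means of 3.96 ± 0.183 CPM in LP085-Vc, 63.9 ± 6.28 CPM in LP104-17 and 132 ± 10.4 CPM in LP118, the last of them 5.05 ± 0.16 higher. All 6 UtpB genes lay within 1.46-fold of one another in FPKM in LP085-Vc at 6 h. They spread to 5.23-fold in LP085-Vc at 24 h, with UTP13 lowest (1.49 FPKM) and UTP18 highest (7.77 FPKM), and to no more than 1.93-fold in the other groups.

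MPP10, IMP3 and IMP4 encode the Mpp10 complex, which binds the U3 snoRNA in the processome. MPP10 had 360, 310 and 475 counts at 6 h and 414, 466 and 423 at 24 h in LP085-Vc, and 416, 490 and 484 at 6 h and 932, 1063 and 991 at 24 h in LP104-17. MPP10 counts in LP118 were 1161, 1183 and 1165 at 6 h and 1290, 1355 and 1178 at 24 h. MPP10 was lowest in LP085-Vc at 6 h once scaled to library size, and libraries overlapped only between LP085-Vc at 24 h and LP104-17 at 6 h. IMP3 had 56, 81 and 109 counts at 6 h and 23, 19 and 37 at 24 h in LP085-Vc, and 82, 139 and 88 at 6 h and 140, 223 and 157 at 24 h in LP104-17. IMP3 counts in LP118 were 354, 367 and 366 at 6 h and 376, 308 and 287 at 24 h. IMP3 was lowest in LP085-Vc at 24 h once scaled to library size, and libraries overlapped only between LP085-Vc at 6 h and LP104-17 at 6 h. IMP4 had 140, 160 and 163 counts at 6 h and 95, 127 and 92 at 24 h in LP085-Vc, and 154, 262 and 168 at 6 h and 249, 333 and 312 at 24 h in LP104-17. IMP4 counts in LP118 were 564, 609 and 586 at 6 h and 612, 556 and 462 at 24 h. IMP4 was lowest in LP085-Vc at 24 h once scaled to library size, and none of its 6 groups overlapped another. In FPKM the 3 genes were nearly level in LP118 at 6 h, at most 1.02-fold apart. In LP085-Vc at 24 h MPP10 stood at 34.1 FPKM and IMP3 at 6.73 FPKM, 5.07-fold apart. In that strain MPP10 rose over time (0.24 ± 0.10, adjusted p = 0.0256) while IMP3 fell (-1.56 ± 0.25, adjusted p = 1.37e-05).

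UTP20 encodes a very large protein of the processome, ENP1 a factor that stays with the precursor of the 40S subunit until the cytoplasm, TSR1 a late factor in the cytoplasm, and ROK1 a DEAD-box RNA helicase. UTP20 had 207, 158 and 215 counts at 6 h and 269, 323 and 274 at 24 h in LP085-Vc, and 212, 191 and 254 at 6 h and 659, 704 and 554 at 24 h in LP104-17. UTP20 counts in LP118 were 906, 840 and 942 at 6 h and 627, 963 and 807 at 24 h. UTP20 was lowest in LP085-Vc at 6 h once scaled to library size, and libraries overlapped only between LP085-Vc at 6 h and LP104-17 at 6 h, and between LP104-17 at 24 h and LP118 at 24 h. ENP1 had 104, 140 and 146 counts at 6 h and 131, 180 and 144 at 24 h in LP085-Vc, and 159, 269 and 221 at 6 h and 427, 508 and 430 at 24 h in LP104-17. ENP1 counts in LP118 were 764, 721 and 702 at 6 h and 747, 756 and 722 at 24 h. ENP1 was lowest in LP085-Vc at 6 h once scaled to library size, and libraries overlapped only between LP085-Vc at 6 h and LP085-Vc at 24 h. TSR1 had 246, 202 and 272 counts at 6 h and 184, 168 and 193 at 24 h in LP085-Vc, and 278, 416 and 314 at 6 h and 553, 599 and 536 at 24 h in LP104-17. TSR1 counts in LP118 were 1068, 1041 and 1104 at 6 h and 800, 1155 and 928 at 24 h. TSR1 was lowest in LP085-Vc at 24 h once scaled to library size, and none of its 6 groups overlapped another. ROK1 had 93, 96 and 111 counts at 6 h and 75, 104 and 109 at 24 h in LP085-Vc, and 138, 184 and 147 at 6 h and 327, 358 and 331 at 24 h in LP104-17. ROK1 counts in LP118 were 574, 581 and 553 at 6 h and 489, 435 and 363 at 24 h. ROK1 was lowest in LP085-Vc at 24 h once scaled to library size, and libraries overlapped only between LP085-Vc at 6 h and LP085-Vc at 24 h. Over LP085-Vc at 24 h, UTP20 was 1.43 ± 0.15 higher in LP118, the smallest difference of the small subunit factors.

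Among the large subunit factors, NOP7, ERB1 and YTM1 encode the Nop7 complex, known as PeBoW in mammals. NOP7 had 273, 325 and 405 counts at 6 h and 125, 142 and 155 at 24 h in LP085-Vc, and 386, 655 and 441 at 6 h and 760, 889 and 807 at 24 h in LP104-17. NOP7 counts in LP118 were 2362, 2270 and 2069 at 6 h and 1585, 1316 and 1246 at 24 h. NOP7 was lowest in LP085-Vc at 24 h once scaled to library size, and none of its 6 groups overlapped another. ERB1 had 268, 238 and 242 counts at 6 h and 85, 88 and 104 at 24 h in LP085-Vc, and 329, 378 and 393 at 6 h and 564, 605 and 548 at 24 h in LP104-17. ERB1 counts in LP118 were 1202, 1248 and 1231 at 6 h and 1177, 1214 and 1073 at 24 h. ERB1 was lowest in LP085-Vc at 24 h once scaled to library size, and none of its 6 groups overlapped another. YTM1 had 182, 161 and 180 counts at 6 h and 97, 76 and 64 at 24 h in LP085-Vc, and 205, 308 and 273 at 6 h and 499, 569 and 572 at 24 h in LP104-17. YTM1 counts in LP118 were 895, 807 and 878 at 6 h and 866, 911 and 874 at 24 h. YTM1 was lowest in LP085-Vc at 24 h once scaled to library size, and none of its 6 groups overlapped another. The 3 genes kept the order of the median member in all 6 groups, from LP118 at 6 h down to LP085-Vc at 24 h. Against LP085-Vc at 24 h LP104-17 had log2 differences of 2.49 to 2.74 in these genes, and LP118 of 3.27 to 3.61. The ranges at 6 h were 0.60 to 0.63 for LP104-17, and 2.73 to 3.19 for LP118.

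NOP2 encodes an rRNA methyltransferase of the 25S rRNA, NOC2 a factor of early and intermediate pre-60S particles, and RPF2 a factor that brings in the 5S particle. NOP2 had 331, 319 and 324 counts at 6 h and 252, 269 and 231 at 24 h in LP085-Vc, and 395, 541 and 419 at 6 h and 969, 992 and 1047 at 24 h in LP104-17. NOP2 counts in LP118 were 1710, 1623 and 1705 at 6 h and 1406, 1534 and 1458 at 24 h. NOP2 was lowest in LP085-Vc at 24 h once scaled to library size, and none of its 6 groups overlapped another. NOC2 had 347, 349 and 360 counts at 6 h and 168, 171 and 154 at 24 h in LP085-Vc, and 380, 511 and 487 at 6 h and 754, 806 and 779 at 24 h in LP104-17. NOC2 counts in LP118 were 1267, 1344 and 1193 at 6 h and 1077, 1249 and 1110 at 24 h. NOC2 was lowest in LP085-Vc at 24 h once scaled to library size, and none of its 6 groups overlapped another. RPF2 had 96, 147 and 153 counts at 6 h and 80, 66 and 82 at 24 h in LP085-Vc, and 181, 265 and 170 at 6 h and 247, 381 and 324 at 24 h in LP104-17. RPF2 counts in LP118 were 996, 906 and 894 at 6 h and 819, 731 and 637 at 24 h. RPF2 was lowest in LP085-Vc at 24 h once scaled to library size, and none of its 6 groups overlapped another. RPF2 had the largest difference of the large subunit factors at 6 h in LP118 over LP085-Vc (3.27 ± 0.15).

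DBP3, DBP9, DRS1, MAK5 and SPB4 encode RNA helicases of 60S assembly. DBP3 had 269, 248 and 296 counts at 6 h and 180, 178 and 166 at 24 h in LP085-Vc, and 283, 436 and 396 at 6 h and 710, 739 and 680 at 24 h in LP104-17. DBP3 counts in LP118 were 1455, 1606 and 1447 at 6 h and 1386, 1551 and 1318 at 24 h. DBP3 was lowest in LP085-Vc at 24 h once scaled to library size, and none of its 6 groups overlapped another. MAK5 had 164, 115 and 179 counts at 6 h and 139, 162 and 172 at 24 h in LP085-Vc, and 191, 233 and 261 at 6 h and 433, 471 and 485 at 24 h in LP104-17. MAK5 counts in LP118 were 762, 840 and 791 at 6 h and 782, 773 and 625 at 24 h. MAK5 was lowest in LP085-Vc at 6 h once scaled to library size, and libraries overlapped only between LP085-Vc at 6 h and LP085-Vc at 24 h. DBP3 and MAK5 were called higher in LP118 than in LP085-Vc at both times. DRS1 had 266, 238 and 264 counts at 6 h and 763, 764 and 761 at 24 h in LP085-Vc, and 298, 451 and 359 at 6 h and 1081, 1065 and 1080 at 24 h in LP104-17. DRS1 counts in LP118 were 1365, 1375 and 1372 at 6 h and 1120, 1156 and 1175 at 24 h. DRS1 was lowest in LP085-Vc at 6 h once scaled to library size, and libraries overlapped only between LP104-17 at 24 h and LP118 at 24 h. SPB4 had 209, 242 and 304 counts at 6 h and 476, 529 and 442 at 24 h in LP085-Vc, and 221, 327 and 271 at 6 h and 595, 637 and 534 at 24 h in LP104-17. SPB4 counts in LP118 were 564, 548 and 553 at 6 h and 689, 671 and 562 at 24 h. SPB4 was lowest in LP085-Vc at 6 h once scaled to library size, and libraries overlapped only between LP085-Vc at 24 h and LP104-17 at 24 h, and between LP104-17 at 24 h and LP118 at 24 h. Their LP085-Vc libraries at 24 h lay above those at 6 h, with a rise of 1.62 ± 0.10 in DRS1, and SPB4 rose too, from 36.7 ± 2.56 to 73.4 ± 4.62 CPM. At 24 h DRS1 in LP118 was 0.56 ± 0.09 above LP085-Vc, and SPB4 0.38 ± 0.09, although both were called (adjusted p = 1.76e-05 and 0.000996).

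Small and large subunit factors were set side by side in each comparison. All 26 and all 16 were higher in LP118 than in LP085-Vc at both times and in LP104-17 at 24 h. Of all tested genes, 32.2% and 38.5% were higher in LP118 at 6 h and 24 h, and 25.1% in LP104-17 at 24 h. At 6 h in LP104-17, 21 of 26 small and 12 of 16 large subunit factors were higher than in LP085-Vc, against 5.79% of genes. Class medians of log2 fold change are compared with a spread between libraries. It is the root of the summed squares of the group SDs of the small minus large difference in median log2 CPM. This spread leaves out the variation among genes of a class, and the comparison is not a test. In LP118 over LP085-Vc at 6 h, single genes ran from 1.87 to 3.12 (small) and 1.59 to 3.27 (large). In LP118 at 6 h the small subunit median was below the large one, 2.56 against 2.73 over LP085-Vc, a difference of -0.17 with a spread of 0.117. It was -0.308 without LP085-Vc 6 h replicate 1 and -0.082, within the spread, without LP085-Vc 6 h replicate 3. At 24 h it was above, 3.21 against 2.73, a difference of 0.48 with a spread of 0.151. Differences within the spread were found for LP104-17 over LP085-Vc, 0.61 against 0.51 at 6 h (spread 0.161) and 1.95 against 1.97 at 24 h (spread 0.115). With log2(FPKM + 1) the 24 h difference was -0.178, beyond this spread. LP118 over LP104-17 gave 1.97 against 2.18 at 6 h (spread 0.139) and 0.95 against 0.74 at 24 h (spread 0.097), both beyond the spread.

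Of the counts in both classes, the small subunit factors held 57.2 to 59.4% in LP085-Vc at 6 h but 47.9 to 49.5% at 24 h, the lowest of all groups. The shares in LP104-17 were 57.5 to 61.2% at 6 h and 53.6 to 54.8% at 24 h. In LP118 they were 54.8 to 56.3% and 55.8 to 59.2%, ranges that overlap. The shares depend on the numbers and lengths of genes, so only changes between groups can be read. Per length, the median small subunit factor had less FPKM than the median large one in every library, with ratios of 0.53 to 0.81. Group means of this ratio at 6 h were 0.6822 in LP085-Vc, 0.7645 in LP104-17 and 0.695 in LP118. At 24 h they were, in the same order, 0.577, 0.5672 and 0.6885. Libraries of LP085-Vc and LP118 at 6 h overlapped, so this ratio does not show the lower small subunit median of LP118 there. Median coding lengths were 1858.5 bases for the small and 1819.5 for the large subunit factors.

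**Figure D4:**
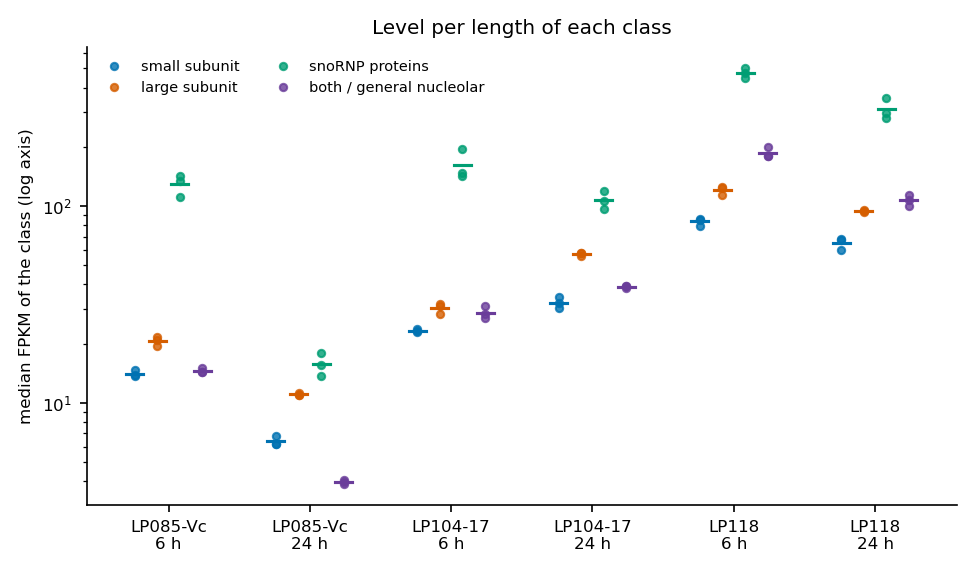
Median FPKM of each class (log axis) in every library, by strain and time, with points for libraries and bars for the mean of 3. The snoRNP proteins are the highest class in every group and drop to 15.7 FPKM in LP085-Vc at 24 h, and small subunit points lie below large subunit points in all 18 libraries.

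Over time the strains differed in direction. In LP085-Vc, 40 of 52 members fell from 6 h to 24 h, where 38.3% of all tested genes fell, and 5 rose, where 37.9% rose. The median was -1.03. The 5 that rose were DRS1, SPB4, UTP20, ENP1 and MPP10, and the count was 3 when only the 2 groups were fitted or without LP085-Vc 24 h replicate 2. Without both libraries named above, 5 rose and 40 fell. The 7 members not called were RRP5, MAK5, NOP4, RLP7, ENP2, ROK1 and UTP5. All 6 snoRNP genes fell, with a median of -3.32 and a range from -2.57 (NHP2) to -4.12 (NOP58). The small subunit median was -1.03 and the large -0.61, a difference of -0.42 with a spread of 0.153. UTP13 fell most of the small subunit factors (-2.81 ± 0.18) and BRX1, which encodes a factor of early 60S assembly, most of the large (-1.99 ± 0.20).

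LP104-17 went the other way for most members. Between 6 h and 24 h, 36 rose, where 35.2% of genes rose, and 9 fell, where 35.7% fell, with a median of 0.62. Without both libraries named above, 35 rose and 9 fell. The 9 that fell were the 6 snoRNP genes and UTP15, UTP18 and UTP22 of the small subunit. The snoRNP median was -0.64, from -0.94 ± 0.10 in NOP1 to -0.53 ± 0.15 in NHP2. The log2 changes of UTP15 and UTP22 were -0.78 ± 0.10 and -0.75 ± 0.17. Of the large subunit factors 15 rose, and BRX1 was not called (0.26 ± 0.16, adjusted p = 0.148). The medians were 0.59 for the small and 0.81 for the large subunit, a difference of -0.22 with a spread of 0.126. Largest were DRS1 (1.51 ± 0.10) and UTP20 (1.49 ± 0.16).

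In LP118, 46 of 52 members fell over time and 0 rose, where 30.5% of genes fell and 26.6% rose. The fall was small, with a median of -0.56, and 4 members passed a halving. At an unadjusted p below 0.05, 48 fell and 0 rose, DESeq2 called 46 and 0, and limma on log2(FPKM + 1) called 30 and 0, a lower count by over 1.5 times. The 6 not called were UTP13, UTP6, UTP18, RRP9, SPB4 and NOP4. NOP7 fell most among the large subunit factors (-1.11), and the 6 snoRNP genes had a median of -0.86. The small subunit median was -0.45 and the large -0.58, a difference of 0.13 with a spread of 0.114. This difference was 0.075 without LP118 24 h replicate 2, within the spread, and 0.217 without LP118 24 h replicate 1.

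**Figure D5:**
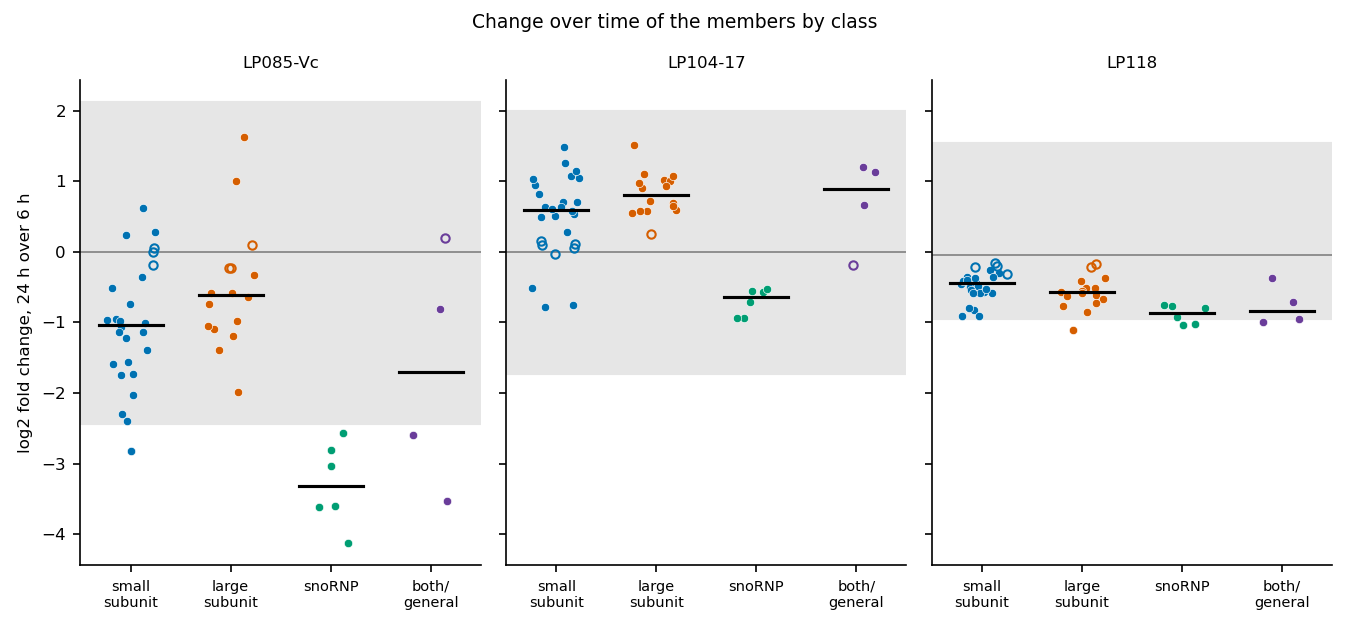
Log2 fold change of each member from 6 h to 24 h (vertical axis) by class in LP085-Vc, LP104-17 and LP118. Filled points were called, open points were not, black bars are class medians, and the grey band and line give the 5th to 95th percentiles and the median of all tested genes. In LP085-Vc the snoRNP points lie below the band, at a median of -3.32, and in LP104-17 most subunit factors lie above 0, with UTP15, UTP18 and UTP22 among those below it, and all 6 snoRNP points lie below it.

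Whether a change over time differed between strains was tested as an interaction. In LP104-17 against LP085-Vc, 49 members had a higher change, where 17.8% of genes had, and 0 a lower one, where 15.3% had, with a median of 1.57. The 3 members not called were DRS1, SPB4 and UTP18. With edgeR at an unadjusted p below 0.05, 50 were higher and 0 lower, and DESeq2 called 49 and 0. Without both libraries named above, 49 were higher and 0 lower. In LP118 against LP085-Vc, 28 were higher, where 30.5% of genes were, and 9 lower, where 29.6% were. The lower count was 6 with limma on log2(FPKM + 1) and 5 on log2(FPKM + 0.1). Without both libraries named above, 28 were higher and 10 lower. All 6 snoRNP genes were higher there, with a median of 2.44, and DRS1 was the lowest member (-2.29 ± 0.14, adjusted p = 3.91e-11). In LP118 against LP104-17, 41 were lower, where 25.3% of genes were, and 0 higher, where 24.5% were. With edgeR at an unadjusted p below 0.05, 43 were lower and 0 higher, while DESeq2 called 42 and 0 and limma on log2(FPKM + 1) 40 and 2. Without both libraries named above, 44 were lower and 2 higher. In the main fit, all 16 large subunit factors were among the lower ones and 21 of 26 small subunit factors. Of the snoRNP genes 0 were called there (1 was lower at an unadjusted p below 0.05, and DESeq2 called 0), with a range of -0.47 ± 0.20 in NOP56 to 0.17 ± 0.14 in NOP1.

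Members shared most of their pattern across libraries. Over the 18 libraries, the log2 CPM of a member had a median Pearson correlation of 0.97 with the median of the other 51 members, and 46 members reached 0.9. The values come from 6 groups of 3 libraries that share their scaling, and they are a description only. Neither these correlations nor the group orders below were worked out for other genes, so how common they are is not known. NOC4, ERB1 and NOC2 were most like the others (0.995, 0.994 and 0.994), and SPB4, DRS1 and UTP20 least (0.593, 0.637 and 0.822). The order of the 6 group means was the same for 33 members: LP118 at 6 h, LP118 at 24 h, LP104-17 at 24 h, LP104-17 at 6 h, LP085-Vc at 6 h and LP085-Vc at 24 h. Another 8 members, the 6 snoRNP genes with UTP15 and UTP22, had LP104-17 at 24 h below LP085-Vc at 6 h. Not all neighbours in this order of the 33 differed by the test. LP104-17 and LP085-Vc at 6 h were not called different for 6 of them, and the times of LP104-17 for 5. The times of LP085-Vc were not called different for 4 and those of LP118 for 3. LP118 and LP104-17 at 24 h were called different for all 33. DRS1, SPB4 and UTP20, not called there, have another order. The 33 were picked by the order of these same means, so these counts cannot support that order. Of all tested genes, 5.79% were higher and 5.76% lower in LP104-17 than in LP085-Vc at 6 h. LP118 against LP104-17 at 24 h had 35.0% and 33.6%. Over time 35.2% rose and 35.7% fell in LP104-17, 37.9% and 38.3% in LP085-Vc, and 26.6% and 30.5% in LP118.

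Other genes of the pathway, listed by function apart from the members, were counted in the same way. Of 48 other large subunit factors, all 48 were higher in LP118 than in LP085-Vc at 6 h. Of all tested genes 32.2% were higher there and 33.8% lower. In LP104-17 at 6 h, 31 were higher and 0 lower, with a median of 0.48, where 5.79% of genes were higher and 5.76% lower. Of 43 other small subunit factors the counts were 43 in LP118 and 20 in LP104-17, with 0 lower in either. DHR2, which encodes a helicase of 40S assembly, differed most of these small subunit factors in LP118 (3.89 ± 0.21), and SPB1, which encodes a methyltransferase of 60S assembly, most of the large ones (3.35 ± 0.14). At 24 h in LP118 over LP085-Vc, 47 of 48 and 42 of 43 were higher, where 38.5% of all genes were. Over time in LP085-Vc, where 38.3% of all genes fell and 37.9% rose, 32 of the 48 fell and 8 rose, and 23 of the 43 fell and 11 rose. In LP104-17, where 35.2% of all genes rose and 35.7% fell, 34 of 48 rose and 2 fell, and 28 of 43 rose and 3 fell.

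The 7 other snoRNP factors, among them assembly factors, were mixed. Over time in LP104-17, where 35.2% of all genes rose and 35.7% fell, 5 of the 7 rose and 1 fell, while the 6 core members fell. The gene that fell was SNU13 (-1.49 ± 0.15), which encodes the fourth core protein of the box C/D particle. Of the genes that rose, BCD1, which encodes an assembly factor of box C/D snoRNAs, changed most (1.71 ± 0.11). SNU13 also fell in LP085-Vc (-2.67 ± 0.17), where RSA1, another assembly factor gene, rose (1.55 ± 0.12).

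Of 5 regulator genes, TOD6 moved most. Its level was 7.51 ± 1.68 CPM in LP085-Vc at 6 h, 15.2 ± 2.33 CPM in LP104-17 and 158 ± 15.8 CPM in LP118, where the members were highest too, and the LP118 value was 4.40 ± 0.14 above LP085-Vc. At 24 h it was 44.1 ± 4.73, 94.1 ± 6.47 and 138 ± 2.91 CPM. DOT6, its paralog, was lower in LP118 than in LP085-Vc, 242 ± 21.0 against 740.3 ± 90.2 CPM at 6 h (-1.61 ± 0.13) and 476 ± 98.2 against 882 ± 21.6 CPM at 24 h (-0.89 ± 0.13). STB3 was lower at 6 h (-0.94 ± 0.12) and at 24 h (-0.55 ± 0.11). SFP1, an activator of ribosome genes, was higher in LP118 by 0.50 ± 0.11 at 6 h and 0.75 ± 0.11 at 24 h. SCH9, a kinase gene of the TORC1 pathway, was higher in LP118 at 6 h (1.18 ± 0.15) and not called at 24 h (-0.28 ± 0.14, adjusted p = 0.0786). In LP104-17 at 6 h, TOD6 was the gene of the 5 that was called (1.01 ± 0.16, adjusted p = 0.000238). Any link between these genes and the members was not tested.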

How the data were processed

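RNA was total RNA, per the labels' protocols. Each library's table holds whole-number read counts per gene and FPKM values, deposited by the authors, per the file headers. The submitters' processing notes name Bowtie2 2.2.5 and the build R64. Which tool counted the reads, with which annotation, and whether strand was used, is not given in the sources used here. Of 6600 identifiers, 5917 (89.7%) matched RefSeq R64; 52 of 52 members matched, and 0 overlap another annotated gene.

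Counts of all 18 libraries were fitted with edgeR 4.0.16 in R 4.3.3 (quasi-likelihood, 6 group means, TMM factors 0.914 to 1.11, filterByExpr with minimum count 10 and total 15, prior count 0.125), which left 6131 genes and removed 469. Tests were two-sided with Benjamini-Hochberg adjustment over all genes. The scripts were tested on simulated data. CPM uses TMM-scaled libraries, and levels per length are the authors' FPKM. Alternatives used DESeq2 1.42.0 and limma 3.58.1, among others. Replicate numbers were not treated as pairs in the main fit: same-number correlations ran from -0.377 to 0.646, and 0 of 15 group pairs had all above 0.1. Between LP085-Vc and LP104-17 at 6 h they were 0.434, 0.646 and -0.318 for replicates 1, 2 and 3. With 3 libraries per group, this rule cannot exclude that some libraries were paired or shared a batch. Members and lists were chosen with earlier results of these data known. Members are named by role, and the other genes as the called ones with the largest changes of each list.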

Additional observations from a re-analysis of the deposited data

Results flagged for a closer look

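The results named here were singled out because a change over time differed between 2 strains by an interaction test in edgeR, at an adjusted p below 0.05. They are values only. Of the 52 members, 49 changed more upward in LP104-17 than in LP085-Vc, where 17.8% of all tested genes did. The log2 differences of changes were 1.01 in RRP5, 3.35 in HAS1, 2.24 in BRX1, 3.31 in UTP13, 2.04 in NHP2 and 3.19 in NOP58. In LP118 against LP085-Vc, 28 members were higher and 9 lower, where 30.5% of all tested genes were higher and 29.6% lower. The extremes of the classes were -0.91 in RRP5 and 2.58 in HAS1, -2.29 in DRS1 and 1.40 in BRX1, -1.21 in UTP20 and 2.61 in UTP13, and 1.65 in NHP2 and 3.09 in NOP58. In LP118 against LP104-17, 41 members were lower, where 25.3% of all tested genes were. The differences were -2.13 in DBP2, -0.77 in HAS1, -2.18 in DRS1, -0.84 in BRX1 and -2.07 in UTP20. The first and second of these 3 comparisons share the LP085-Vc libraries, and the third shares libraries with both.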

How the results depend on the processing

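Small minus large subunit differences near 0 changed sign: for LP104-17 over LP085-Vc at 24 h (-0.015) it was -0.073 to 0.046 without 1 library, and for the change over time of these strains (0.058) it was -0.02 to 0.112 without 1 library, -0.004 with log2(FPKM + 1) and -0.058 without the 2 libraries named below, all within their spreads of 0.115 and 0.198. Single gene values under alternatives were checked for 28 members taken by role. The other members, among them DRS1, SPB4, UTP13, UTP15, UTP18, UTP22 and BRX1, were not in this check. Of 5432 such values, 66 lost and 25 gained their call and none changed direction while called. With the replicate block, 0 single gene calls of these 28 changed and 0 summary values moved. There, 40 members remained the count higher in LP104-17 at 6 h. A summary value was counted as moved only beyond a set tolerance, which for a class difference was its spread. Smaller changes were not counted, such as 38 members falling in LP118 without 1 library, against 46 in the main fit. Of 587 summary values, 18 moved. When only the groups compared were fitted, 24 members were higher in LP104-17 than in LP085-Vc at 6 h, and 3 rose over time in LP085-Vc; the latter was also 3 with log2(FPKM + 0.1) and log2(FPKM + 1). Without 1 library, these counts were 36 to 40 and 3 to 5, the 3 without replicate 2 of LP085-Vc at 24 h. With both FPKM scales, 30 members fell in LP118 (38 to 46 without 1 library). With log2(FPKM + 0.1), 5 had a lower change over time in LP118 than in LP085-Vc. In LP118 against LP104-17, 1 had a higher change with the coding length trend removed, 2 with both FPKM scales and 0 to 1 without 1 library (1 without LP104-17 24 h replicate 1, LP104-17 6 h replicate 2 or LP118 6 h replicate 2), and 2 without LP085-Vc 6 h replicate 1 and LP104-17 6 h replicate 2, an alternative chosen after seeing the data. The small minus large subunit difference over LP085-Vc was -0.178 with log2(FPKM + 1) for LP104-17 at 24 h, beyond its spread of 0.115. For LP118 at 6 h it was -0.308 to -0.082 without 1 library (-0.308 without those 2 libraries). FPKM scales shift the median of all genes by up to 0.248 in a comparison. The cause of these changes was not tested. A window of 300 bases left the motif shares within their 95% binomial intervals. Counts of 19 to 40, as for IMP3 or NSR1 in LP085-Vc at 24 h, limit the precision of single values there.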
